A study of Cricetulus griseus with 24 samples.

Results

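The enzymes that write, copy and remove DNA methylation were followed in 3 Chinese hamster ovary (CHO) lines. The group was set by name: Dnmt1, Dnmt3a, Dnmt3b, Uhrf1, Tet1, Tet2, Tet3 and Tdg, matched to the symbols of the deposited count table. Of these 8 genes, 7 had a row among the 28037 genes of the table, and Dnmt3b was not analysed here. Tet1 was at the floor, so 6 genes could be compared.

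Methylated cytosine in CpG dinucleotides is copied after replication by DNMT1, which UHRF1 brings to hemimethylated DNA, while DNMT3A and DNMT3B set new marks. The TET dioxygenases oxidise 5-methylcytosine, and TDG cuts out the more oxidised bases, which base excision repair replaces with cytosine. In CHO production lines the CMV promoter that often drives the antibody genes is a known target of silencing by DNA methylation. Methylation itself was not measured in these data, which hold RNA levels.

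RNA-seq was done on A0, an antibody-producing DG44 clone, on A1, its progeny after stepwise selection in rising methotrexate (MTX), and on the non-producing line CHO-S. A0 and A1 carry plasmids with the IgG heavy chain and with the light chain and neomycin phosphotransferase. They stand for a single clone and its amplified descendant, and CHO-S is a separate CHO lineage that makes no antibody, whose sample titles hold letters (NDST) that the labels do not explain. The producing lines were grown in serum-free medium. Each line was sampled in exponential and in stationary phase, with 4 A0 cultures, 3 A1 cultures and 3 CHO-S cultures at each phase, and the 2 libraries of each A0 exponential culture were summed. The study's methods describe parallel batch flask cultures of each line, with no word on separate thaws, so p-values measure the spread between such cultures. Cells of different cycle stages were not separated, so fewer cells with a transcript and less RNA per cell cannot be told apart.

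Levels are given as CPM, the reads of a gene relative to all reads counted on genes, after TMM scaling, and differences as log2 fold changes with standard errors (SE) from edgeR's quasi-likelihood fit, adjusted over all genes tested. A gene was called at an adjusted p under 0.05. The libraries held 1038026 to 14652646 counts. The lowest was CHO-S stationary culture 1, and the next lowest library had 6532373. That culture also stood apart in levels: the summed level of 8 methyl-CpG readers was 706 CPM against 499 and 471 CPM in CHO-S stationary cultures 2 and 3. That of 12 genes listed for base excision repair, Gadd45 stress genes among them, was 418 against 555 and 560 CPM. Depth and a different state of that culture cannot be told apart. Vim, a gene of mesenchymal cells that CHO cells express, was high in all 6 groups (group means 799 to 1412 CPM), while Ptprc, Cdh5 and Cdh1, genes of leukocytes, endothelium and epithelium, had group means under 1 CPM.

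The 4 A0 cultures fell into 2 sets. Cultures 1 and 2, whose second exponential library is marked RLT, and cultures 3 and 4, whose second library is marked as a duplicate, were separate for 6 of 6 genes in exponential phase and for 5 of 6 in stationary phase, Tdg being the exception. Over all genes with counts, 51.6% did not overlap between these sets at exponential phase and 55.6% at stationary phase. What separates the sets was not tested. Where a call between lines for 1 of the 6 genes changes with the set, the values with single sets are given. Calls of genes in the other lists were not followed by set, so their dependence on it is not known. Within a culture the second library differed from the first by 0.05 to 0.24 for Dnmt1 and by -0.11 to 0.01 for Uhrf1 on the log2 scale. The range was -0.31 to -0.03 for Dnmt3a, -0.33 to 0.36 for Tet2, -0.24 to 0.06 for Tet3 and 0.10 to 0.31 for Tdg.

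**Figure D1:**
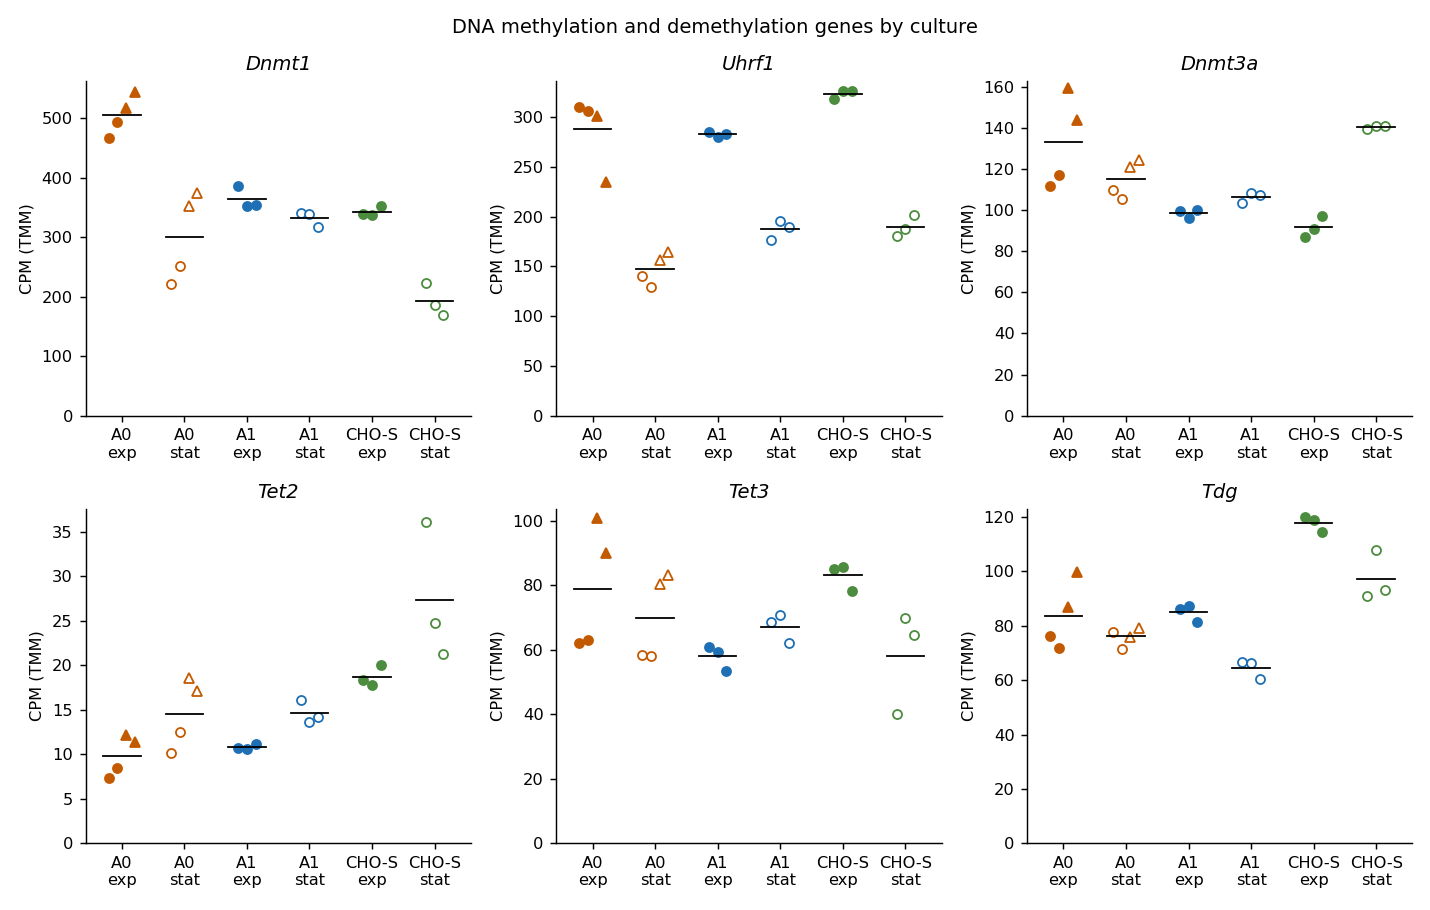
CPM (TMM-scaled) of the 6 measurable genes in each culture, by line and growth phase; filled symbols are exponential and open symbols stationary cultures, triangles are A0 cultures 3 and 4, and black lines are group means. Dnmt1 is highest in the 4 exponential A0 cultures (468 to 544 CPM), Tet2 is highest at each phase in the CHO-S cultures, and A0 triangles and circles lie apart in most panels.

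A1 expressed less Dnmt1, Dnmt3a and Tet3 than A0 during exponential growth. The Dnmt1 call held in all 17 alternative settings, the Dnmt3a call in 13 and the Tet3 call in 8. With A0 cultures 1 and 2 alone the Tet3 value was -0.12 (edgeR adjusted p = 0.23). At stationary phase A1 had more Uhrf1 and less Tdg. In exponential phase 3 of 6 genes were called, all lower in A1, beside 25.9% of all genes tested (12% higher and 13.8% lower). In stationary phase 2 of 6 were called, 1 higher and 1 lower, beside 33.7% (16% higher and 17.7% lower). The median log2 fold change of the 6 genes was -0.23 at exponential phase, where that of all genes was -0.04, and -0.05 at stationary phase, where that of all genes was 0.00 to 2 decimals. The comparisons of the 3 lines share samples, so their values stand side by side and are not independent.

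CHO-S had more Tet2 and Tdg than both producing lines at both phases. A0 against CHO-S gave 4 of 6 calls at exponential phase, 2 higher and 2 lower in A0, beside 49.5% of all genes (27.6% higher and 21.9% lower). It gave 4 of 6 at stationary phase, 1 higher and 3 lower, beside 40% (20.7% higher and 19.3% lower). A1 against CHO-S gave 4 of 6 at exponential phase, all lower in A1, beside 57.2% (30% higher and 27.1% lower), and 4 of 6 at stationary phase, 1 higher and 3 lower, beside 34.8% (18.2% higher and 16.6% lower). At exponential phase the shares called in either direction lie close to the background, so the number of calls says little about the group of enzymes. By direction, the 4 calls of exponential A1 against CHO-S, all lower, stood beside 27.1% of all genes. Whether the 6 genes share a direction was not tested.

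Into stationary phase Uhrf1 fell in all 3 lines and Dnmt1 in A0 and CHO-S, and Tet2 rose in A0 and A1. In A0, 3 of 6 genes were called, 1 higher and 2 lower, beside 37.7% of all genes (17.7% higher and 20.1% lower). In A1, 4 of 6 were called, 2 in each direction, beside 33.4% (15.6% higher and 17.8% lower). In CHO-S, 3 of 6 were called, 1 higher and 2 lower, beside 13.3% (6.81% higher and 6.48% lower). A phase change that differed between lines was called for 1 of 6 genes between A1 and A0 (8.94% of all genes), for 1 of 6 between A0 and CHO-S (10.3%) and for 2 of 6 between A1 and CHO-S (7.60%). The CHO-S phase calls rest on few samples. With all 6 cultures edgeR called 3 of the 6 genes (2308 of all genes), and 6 without CHO-S stationary culture 1 (8269 of all genes). It called 1 without stationary culture 3 (574 of all genes) and 0 without any one of the other 4 (0 to 337 of all genes). The number called thus moved over all genes as well.

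**Figure D2:**
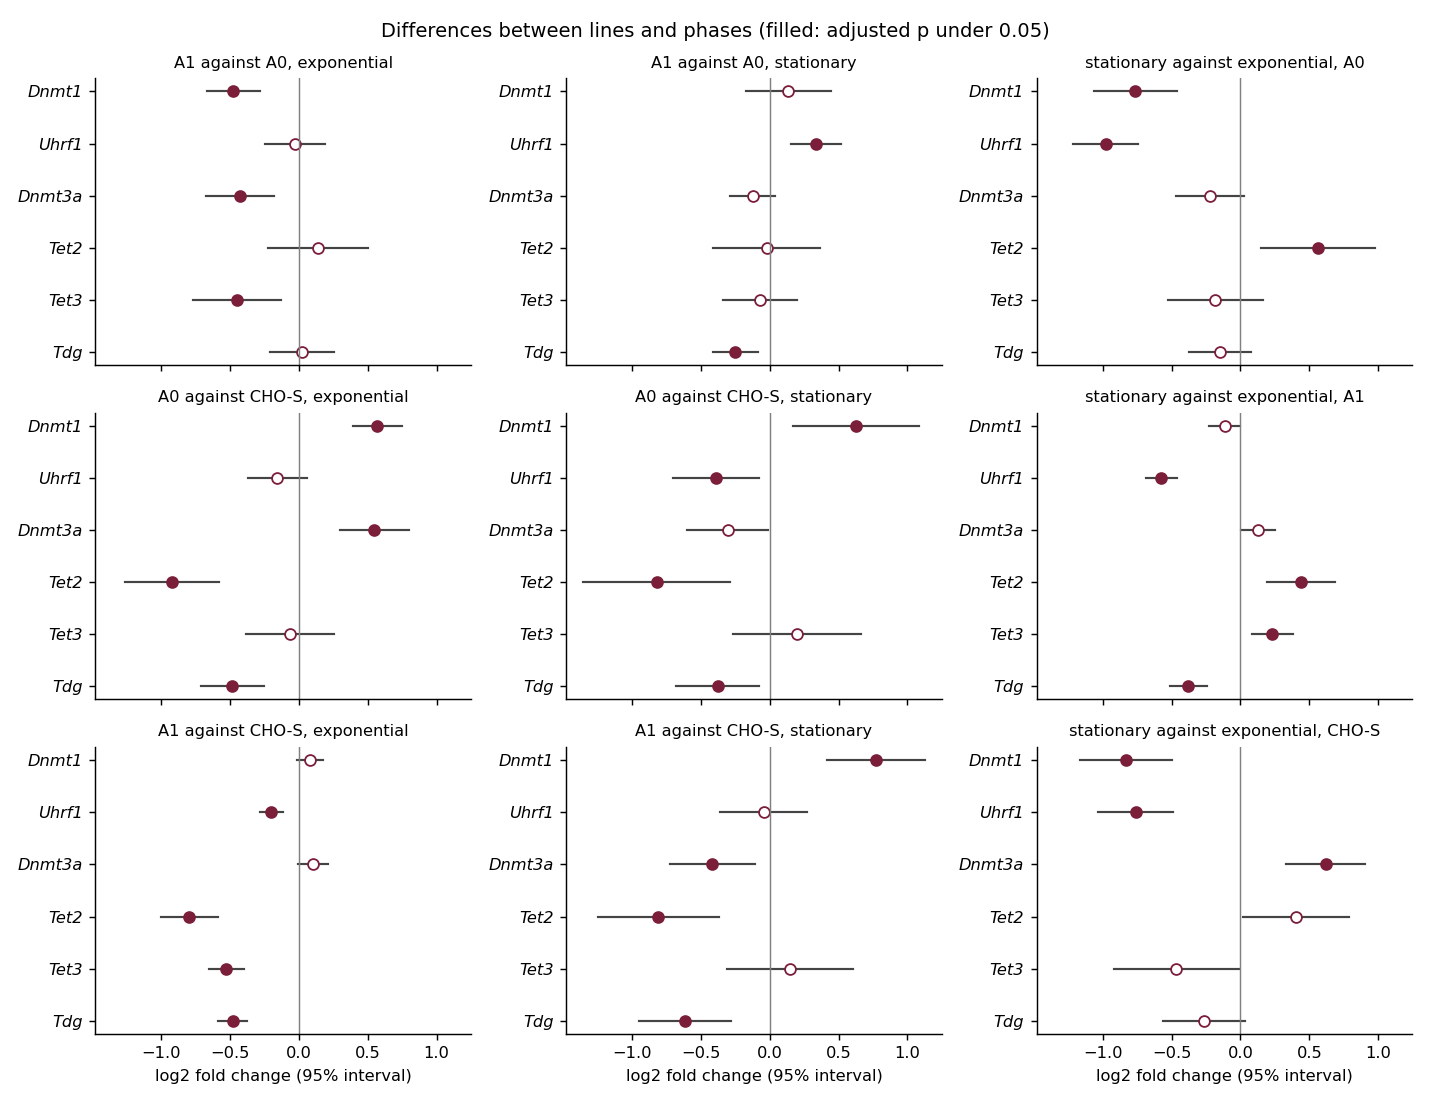
Log2 fold changes of the 6 genes in the 9 pairwise comparisons, with 95% intervals from the edgeR fit; filled points have an adjusted p under 0.05, and a value to the right of 0 is higher in the first named line or phase. Tet2 and Tdg lie left of 0 in all 4 comparisons of a producing line with CHO-S, and Uhrf1 lies left of 0 in the 3 comparisons of phases.

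Dnmt1, the maintenance methyltransferase (gene 100762713), reached 468, 494, 518 and 544 CPM in the exponential A0 cultures. Exponential A1 had 386, 353 and 354 CPM and exponential CHO-S had 339, 338 and 353 CPM. Every A0 culture lay above every culture of the other lines, and A1 and CHO-S overlapped. Dnmt1 was 1.39-fold lower in A1 than in A0 (log2 -0.48, SE 0.09, edgeR adjusted p = 0.0012), and it was higher in A0 than in CHO-S (log2 0.57, SE 0.08, edgeR adjusted p = 4.64e-05). Both calls held in all 17 alternatives, with -0.41 against A0 cultures 1 and 2 alone and -0.55 against cultures 3 and 4 alone. Between A1 and CHO-S the difference was 0.08 on the log2 scale (95% interval -0.01 to 0.17).

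At stationary phase Dnmt1 was at 221, 253, 353 and 374 CPM in A0, 341, 338 and 317 CPM in A1, and 223, 186 and 170 CPM in CHO-S. The A1 cultures lay inside the range of the A0 cultures, and above all CHO-S cultures. Dnmt1 fell from exponential to stationary phase in A0 (log2 -0.76, SE 0.14, edgeR adjusted p = 4.5e-04) and in CHO-S (log2 -0.83, SE 0.14, edgeR adjusted p = 0.012). In A1 the change was -0.11 (SE 0.06) and was not called (edgeR adjusted p = 0.12). The change in A0 was called with either set of cultures, at -1.03 with cultures 1 and 2 and at -0.54 with cultures 3 and 4. The CHO-S call was lost without any one culture other than stationary culture 1 (-0.75 to -0.84, edgeR adjusted p = 0.064 to 0.089). It was also lost with a replicate block (-0.84, edgeR adjusted p = 0.063).

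That the phase change of Dnmt1 was smaller in A1 was tested directly. The interaction of line and phase was 0.61 between A1 and A0 (SE 0.18, edgeR adjusted p = 0.031) and 0.72 between A1 and CHO-S (SE 0.16, edgeR adjusted p = 0.013). Between A0 and CHO-S it was 0.07 (95% interval -0.41 to 0.55) and was not called. The A1 and A0 interaction was called with A0 cultures 1 and 2 alone (0.88) and with 3 and 4 alone (0.41). It was lost without A0 culture 2 (edgeR adjusted p = 0.084) and without A1 culture 1, 2 or 3 (0.10 to 0.16), at 0.55 to 0.64 on the log2 scale, and also with 6 groups in 1 fit (0.62, edgeR adjusted p = 0.072) and with the first A0 libraries only (0.50, edgeR adjusted p = 0.056). The A1 and CHO-S interaction was lost without any one A1 culture or without CHO-S culture 2 or 3 (edgeR adjusted p = 0.059 to 0.10).

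In stationary phase the comparison of A1 with A0 depended on which A0 cultures were used. With all 4 the difference in Dnmt1 was 0.13 (SE 0.14, edgeR adjusted p = 0.52), and with a replicate block it was 0.28 and called (edgeR adjusted p = 0.0068). That block matched A1 and A0 cultures by number alone, and A0 culture 4, which has no A1 partner, did not enter its contrast. Without A0 culture 4 and without a block, the difference was 0.26 and not called (edgeR adjusted p = 0.14). With cultures 1 and 2 alone A1 was higher (0.47, edgeR adjusted p = 1.82e-06), and with cultures 3 and 4 alone the value was -0.13 (edgeR adjusted p = 0.082). Stationary Dnmt1 was higher in A1 than in CHO-S (log2 0.77, SE 0.16, edgeR adjusted p = 0.0059), in all 12 alternatives. It was also higher in A0 than in CHO-S (0.62, SE 0.21, edgeR adjusted p = 0.034), although culture 1 of A0 and culture 1 of CHO-S overlapped. This last call was lost with A0 cultures 1 and 2 alone (0.30, edgeR adjusted p = 0.30), and also without A0 culture 3 or 4 or CHO-S culture 2 or 3 (0.51 to 0.68, edgeR adjusted p = 0.076 to 0.12).

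**Figure D3:**
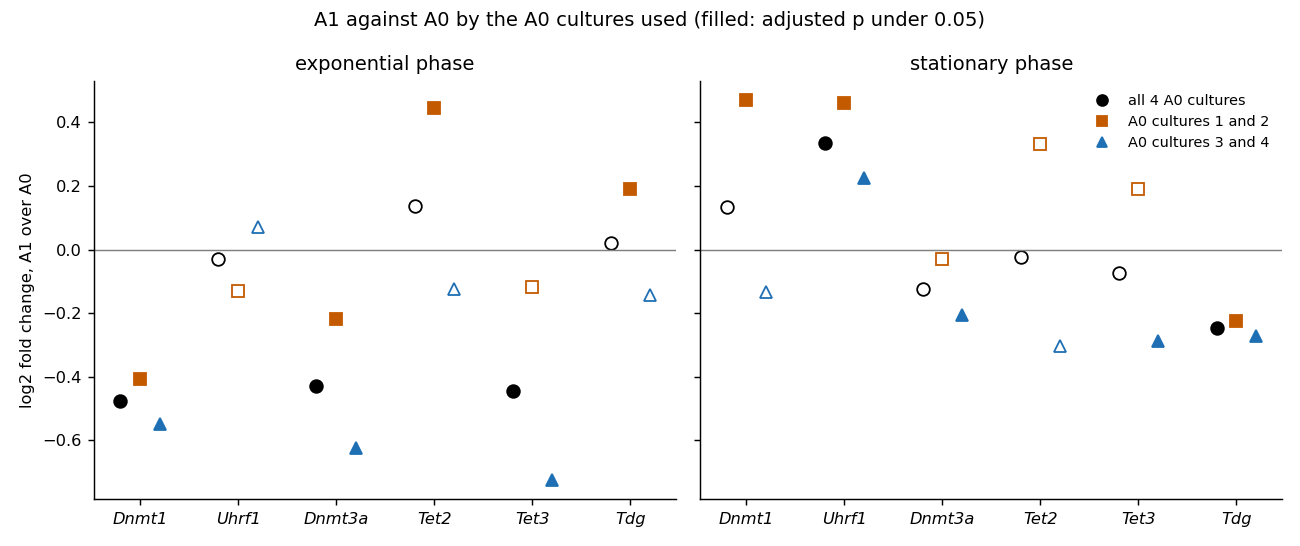
Log2 fold change of A1 over A0 for the 6 genes at each phase, with all 4 A0 cultures (circles), cultures 1 and 2 alone (squares) and cultures 3 and 4 alone (triangles); filled symbols have an edgeR adjusted p under 0.05. Dnmt1 and Dnmt3a at exponential phase, and Uhrf1 and Tdg at stationary phase, are called in the same direction in all 3, whereas stationary Dnmt1 is 0.47 with one set and -0.13 with the other.

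Uhrf1 (gene 100758459), whose protein reads hemimethylated CpG, was at 310, 306, 301 and 235 CPM in exponential A0, 285, 280 and 283 CPM in exponential A1, and 318, 326 and 326 CPM in exponential CHO-S. A0 culture 4 lay below all the others. The difference between A1 and A0 was -0.03 (95% interval -0.25 to 0.19), and A1 was lower than CHO-S by a small amount (log2 -0.20, SE 0.04, edgeR adjusted p = 1.75e-04). The latter was lost when the 6 groups shared 1 fit (-0.20, edgeR adjusted p = 0.22).

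In stationary phase Uhrf1 was at 140, 129, 156 and 164 CPM in A0, 176, 195 and 190 CPM in A1, and 181, 187 and 202 CPM in CHO-S. All A0 cultures lay below those of the other lines, and A1 and CHO-S overlapped. Uhrf1 was higher in A1 than in A0 (log2 0.34, SE 0.08, edgeR adjusted p = 0.0066), with 0.46 against cultures 1 and 2, 0.22 against cultures 3 and 4, and a call in all 15 alternatives. It was lower in A0 than in CHO-S (-0.39, SE 0.14, edgeR adjusted p = 0.049), a call lost in 11 of 15 alternatives, among them the fits without any one A0 culture or without CHO-S culture 2 or 3 (-0.33 to -0.44), and with A0 cultures 1 and 2 alone (-0.50) or 3 and 4 alone (-0.28).

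Uhrf1 fell into stationary phase in all 3 lines, with no overlap between phases. The log2 fold change was -0.98 in A0 (SE 0.11, edgeR adjusted p = 4.18e-06), -0.57 in A1 (SE 0.06, edgeR adjusted p = 1.57e-09) and -0.76 in CHO-S (SE 0.12, edgeR adjusted p = 0.0082). The CHO-S call was lost without stationary culture 2 or any one exponential culture (-0.74 to -0.77, edgeR adjusted p = 0.059 to 0.080). The difference between A1 and A0 in this change, 0.37 (SE 0.14), was not called (edgeR adjusted p = 0.11), and was called with A0 cultures 1 and 2 alone (0.59) and without A0 culture 4 (0.51, edgeR adjusted p = 0.0031).

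Both maintenance genes are transcribed in proliferating cells, so 18 genes of S phase and proliferation were read beside them. Their summed level fell from 6388 ± 235 CPM (SD, n = 4) to 2599 ± 653 in A0, from 5589 ± 75.4 (SD, n = 3) to 3745 ± 107 in A1, and from 5647 ± 31.5 (SD, n = 3) to 3122 ± 302 in CHO-S. Of the 18 genes, 17, 17 and 13 were called lower at stationary phase in A0, A1 and CHO-S, with none higher, and their median log2 fold changes were -1.39, -0.71 and -1.08 where those of all genes were 0.00, 0.03 and 0.02. Of all genes, 20.1%, 17.8% and 6.48% were called lower. The stationary A0 cultures had sums of 2147, 1938, 3052 and 3258 CPM, so cultures 3 and 4, which had more Dnmt1 and Uhrf1, also had the higher sums. Between A1 and A0, 12 of the 18 were higher in A1 at stationary phase and none lower, while at exponential phase 7 were lower and 1 higher. Of all genes, 16% were higher and 17.7% lower at stationary phase, and 12% higher and 13.8% lower at exponential phase. The fall was smaller in A1 than in A0 for 10 of the 18 by the interaction test, which called 8.94% of all genes. The 1 gene of the 18 that was higher in A1 at exponential phase, against 7 lower, was E2f1 (log2 0.63, SE 0.13, edgeR adjusted p = 0.0017). E2f1, a transcription factor of the G1 to S transition, was also higher at stationary phase (1.37, SE 0.16, edgeR adjusted p = 1.46e-05). The part of these genes in the Dnmt1 and Uhrf1 results was not tested.

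**Figure D4:**
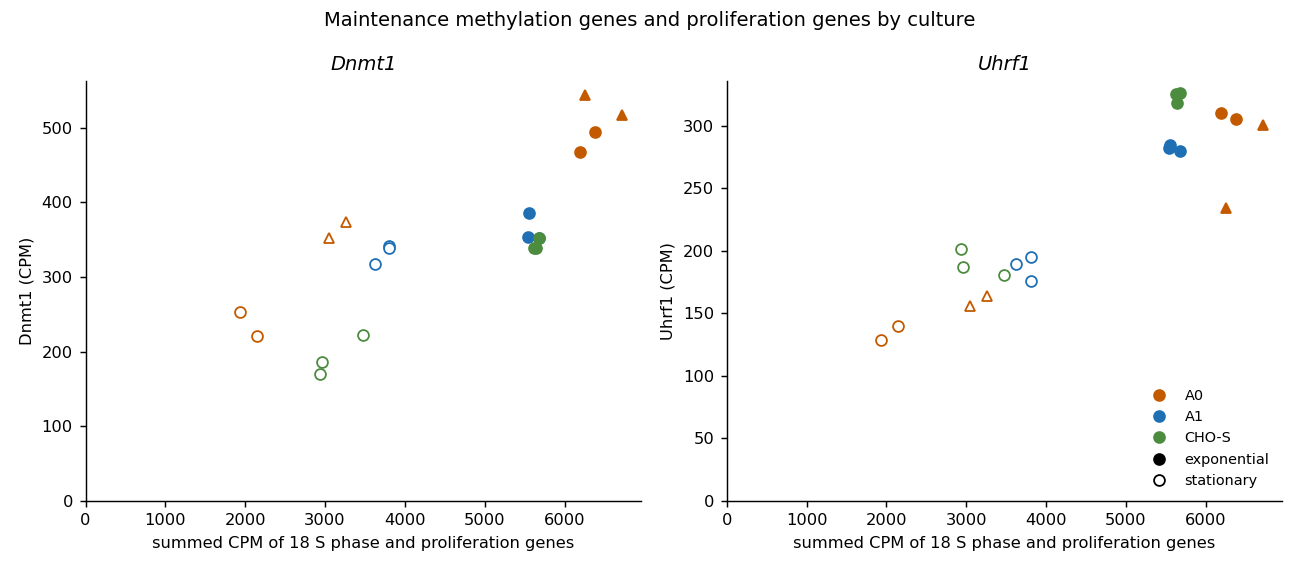
Dnmt1 and Uhrf1 (CPM) in each of 20 cultures against the summed CPM of 18 S phase and proliferation genes; filled symbols are exponential and open symbols stationary cultures, colours are lines and triangles are A0 cultures 3 and 4. Exponential cultures lie at sums of 5541 to 6721 CPM and stationary cultures at 1938 to 3807 CPM, and in the left panel exponential A0 lies above the other lines.

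Of 10 partners of maintenance methylation, 9 had a row and were tested. At exponential phase 3 were lower in A1 than in A0 and none higher, with a median of -0.22 against -0.04 for all genes: Cdca7 (log2 -0.63, SE 0.11), Hells (-0.34, SE 0.08), whose products form a nucleosome-remodelling complex with each other, and the insulator protein gene Ctcf (-0.44, SE 0.09). At stationary phase 4 were higher in A1 and none lower, Hells (0.60, SE 0.19), the sliding clamp gene Pcna (0.56, SE 0.10), the histone methyltransferase gene Setdb1 (0.32, SE 0.08) and the corepressor gene Trim28 (0.35, SE 0.08), with a median of 0.11 against 0.00 for all genes. Of all genes, 25.9% were called at exponential phase (12% higher and 13.8% lower) and 33.7% at stationary phase (16% higher and 17.7% lower). The partners given here were named after their values were seen. From exponential to stationary phase 6, 6 and 4 of the 9 fell in A0, A1 and CHO-S, and 0, 2 and 0 rose. Of all genes, 20.1%, 17.8% and 6.48% fell and 17.7%, 15.6% and 6.81% rose.

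Dnmt3a (gene 100771064), the de novo methyltransferase, was at 112, 117, 159 and 144 CPM in exponential A0, 99.7, 96.2 and 100.2 CPM in exponential A1, and 87.1, 90.6 and 97.0 CPM in exponential CHO-S. All A0 cultures lay above the others, and A1 and CHO-S overlapped. Dnmt3a was 1.35-fold lower in A1 than in A0 (log2 -0.43, SE 0.12, edgeR adjusted p = 0.012) and higher in A0 than in CHO-S (0.55, SE 0.12, edgeR adjusted p = 0.0013). The first was smaller against A0 cultures 1 and 2 (-0.22, edgeR adjusted p = 0.016) than against cultures 3 and 4 (-0.62, edgeR adjusted p = 5.9e-04). It was lost without A1 culture 1, 2 or 3 (-0.42 to -0.44, edgeR adjusted p = 0.052 to 0.063). With the second A0 libraries only it was also lost (edgeR adjusted p = 0.11). The second held in all 17 alternatives.

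At stationary phase Dnmt3a was at 110, 105, 121 and 124 CPM in A0, 103, 108 and 107 CPM in A1, and 139, 141 and 141 CPM in CHO-S. The order of the lines had turned: CHO-S lay above both others. Dnmt3a was lower in A1 than in CHO-S (log2 -0.42, SE 0.13, edgeR adjusted p = 0.042), a call that was lost without any one culture other than CHO-S culture 1 (edgeR adjusted p = 0.095 to 0.13). The value in A0 against CHO-S was -0.30 (SE 0.13, edgeR adjusted p = 0.094), and without CHO-S culture 1 it was -0.27 and called (edgeR adjusted p = 0.022). A1 and A0 differed by -0.12 (95% interval -0.29 to 0.04), and by -0.21 with A0 cultures 3 and 4 alone, which was called (edgeR adjusted p = 0.015).

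Dnmt3a rose into stationary phase in CHO-S (log2 0.62, SE 0.12, edgeR adjusted p = 0.019), while in A0 the value was -0.22 (SE 0.12, edgeR adjusted p = 0.16) and in A1 0.13 (SE 0.06, edgeR adjusted p = 0.11). The CHO-S rise was lost without any one culture other than stationary culture 1 (0.59 to 0.67, edgeR adjusted p = 0.079 to 0.12). The phase change differed between A0 and CHO-S (-0.85, SE 0.19, edgeR adjusted p = 0.0058), under every alternative and with either set of A0 cultures (-0.69 and -0.93). It also differed between A1 and CHO-S (-0.50, SE 0.13, edgeR adjusted p = 0.034), but not once any one A1 culture or CHO-S culture 2 or 3 was left out (edgeR adjusted p = 0.11 to 0.18). Dnmt3a was the only gene of the 6 called in both interactions with CHO-S. Between A1 and A0 the interaction was 0.31 (edgeR adjusted p = 0.21), and was called with A0 cultures 3 and 4 alone (0.42, edgeR adjusted p = 0.014).

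The accessory list held Dnmt3l, a catalytically inactive partner of the de novo enzymes, and Trdmt1, a tRNA methyltransferase of the DNMT family. Only Trdmt1 passed the filter on low counts. It was lower in A1 than in A0 at exponential phase (log2 -0.71, SE 0.15, edgeR adjusted p = 0.0023) and at stationary phase (-0.85, SE 0.20, edgeR adjusted p = 0.0051), and was named after its values were seen. The summed level of the list was 19.1 to 26.4 CPM in exponential A0 and 12.7 to 15.2 CPM in exponential A1. At stationary phase it was 19.7, 19.3, 10.7 and 12.9 CPM in A0 cultures 1 to 4 and 7.82 to 9.49 CPM in A1. The difference was thus larger against A0 cultures 1 and 2 than against cultures 3 and 4.

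Of the dioxygenases, Tet1 (gene 100771765) had 7 counts over the 24 libraries, at most 2 in any library and 0 in 18 of them. With a floor of 3 counts per culture, no culture rose above it, and no fold change is given for it. The data do not show at this depth whether a low level of Tet1 RNA was present.

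Tet2 (gene 100769811) was at 7.35, 8.47, 12.1 and 11.4 CPM in exponential A0, 10.7, 10.6 and 11.1 CPM in exponential A1, and 18.3, 17.8 and 20.05 CPM in exponential CHO-S. At stationary phase it was at 10.1, 12.5, 18.6 and 17.1 CPM in A0, 16.1, 13.7 and 14.1 CPM in A1, and 36.1, 24.7 and 21.3 CPM in CHO-S. At each phase every CHO-S culture lay above every culture of the producing lines, and A0 and A1 overlapped. The highest value, 36.1 CPM, was from CHO-S stationary culture 1 and rests on 35 counts.

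Tet2 was lower than in CHO-S in both producing lines at both phases. In exponential cultures the fold change was -0.92 on the log2 scale for A0 (SE 0.16, edgeR adjusted p = 2.17e-04) and -0.80 for A1 (SE 0.10, edgeR adjusted p = 2.63e-07), called in all 17 and all 12 alternatives. At stationary phase it was -0.82 for A0 (SE 0.24, edgeR adjusted p = 0.020) and -0.81 for A1 (SE 0.19, edgeR adjusted p = 0.012). Without CHO-S culture 1 these were -0.64 and -0.71 and still called. The stationary A0 call was lost with A0 cultures 3 and 4 alone (-0.56, edgeR adjusted p = 0.13), without A0 culture 2 (-0.77, edgeR adjusted p = 0.055) and without CHO-S culture 2 (-0.81, edgeR adjusted p = 0.081). The stationary A1 call was lost without A1 culture 2 or 3 (-0.79 and -0.83, edgeR adjusted p = 0.069 and 0.064).

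Between A1 and A0 the Tet2 difference was 0.14 at exponential phase (95% interval -0.22 to 0.50) and -0.02 at stationary phase (95% interval -0.41 to 0.37). The sign depended on the A0 cultures: 0.45 (edgeR adjusted p = 0.017) against cultures 1 and 2 and -0.13 against cultures 3 and 4 at exponential phase. Tet2 rose into stationary phase in A0 (0.56, SE 0.19, edgeR adjusted p = 0.031) and in A1 (0.44, SE 0.12, edgeR adjusted p = 0.0046). In CHO-S the value was 0.40 (SE 0.16, edgeR adjusted p = 0.15), and without stationary culture 1 it was 0.32 and called (edgeR adjusted p = 0.0040). The phases overlapped in A0, where the rise was called within each set of cultures (0.51 and 0.60) and lost without exponential culture 1 or 2 or stationary culture 3 or 4 (0.43 to 0.50, edgeR adjusted p = 0.087 to 0.12). None of the 3 interactions was called for Tet2 (-0.16 to 0.12).

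Tet3 (gene 100769509) was at 62.1, 62.9, 100.7 and 90.1 CPM in exponential A0, 60.8, 59.5 and 53.6 CPM in exponential A1, and 85.1, 85.8 and 78.4 CPM in exponential CHO-S. A1 lay below both other lines. A0 cultures 1 and 2 lay below CHO-S and cultures 3 and 4 above it. Between A0 and CHO-S the value was -0.06 with all cultures (edgeR adjusted p = 0.75), -0.41 and called with A0 cultures 1 and 2 alone (edgeR adjusted p = 2.12e-04), and 0.20 with cultures 3 and 4 alone (edgeR adjusted p = 0.061). Tet3 was lower in A1 than in A0 (log2 -0.45, SE 0.15, edgeR adjusted p = 0.039) and than in CHO-S (-0.53, SE 0.06, edgeR adjusted p = 7.69e-08). The difference from CHO-S held in all 12 alternatives. The difference from A0 was lost in 9 of 17, among them A0 cultures 1 and 2 alone (-0.12, edgeR adjusted p = 0.23) and the fits without A0 culture 3 or 4 or any one A1 culture (-0.31 to -0.49), whereas with A0 cultures 3 and 4 alone it was -0.73 (edgeR adjusted p = 5.72e-04).

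Stationary Tet3 was at 58.4, 58.0, 80.4 and 83.3 CPM in A0, 68.7, 70.8 and 62.3 CPM in A1, and 40.3, 69.8 and 64.6 CPM in CHO-S. The 3 lines overlapped, and no pairwise difference was called. The low CHO-S value was from culture 1 and rests on 39 counts. Against A0 cultures 3 and 4 alone A1 was lower (-0.29, edgeR adjusted p = 0.0053), and against cultures 1 and 2 the value was 0.19. Tet3 rose into stationary phase in A1 by a small amount (0.23, SE 0.07, edgeR adjusted p = 0.011), a call lost without A1 exponential culture 3 or stationary culture 2 (0.18 and 0.19, edgeR adjusted p = 0.10 and 0.073). In CHO-S the value was -0.47 (SE 0.19, edgeR adjusted p = 0.16), and without stationary culture 1 it was -0.29 and called (edgeR adjusted p = 2.18e-05). The interaction between A1 and A0 was 0.38 (edgeR adjusted p = 0.32), and was called with either set of A0 cultures alone (0.30 and 0.43, edgeR adjusted p = 0.049 and 0.028). The interaction between A1 and CHO-S was 0.65 (SE 0.19, edgeR adjusted p = 0.052), and 0.49 and called without CHO-S culture 1 (edgeR adjusted p = 3.76e-04).

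Of 10 genes that supply, limit or partner the TET enzymes, all were tested. At exponential phase 2 were higher in A1 than in A0 and 1 lower, and at stationary phase 4 were higher and 2 lower, with medians of 0.08 and -0.01, where 25.9% and 33.7% of all genes were called. At exponential phase Sdhb, which encodes a subunit of succinate dehydrogenase, was the other higher gene (log2 0.44, SE 0.09), and Cxxc4, a relative of Cxxc5, was the lower one (-0.56, SE 0.16). Cxxc5, which encodes a CXXC zinc finger protein, was higher in A1 at both phases (log2 0.74 and 0.80, SE 0.16 and 0.14). Idh1 (0.65, SE 0.10) and Idh2 (0.51, SE 0.13), whose enzymes make 2-oxoglutarate, the TET cosubstrate, were higher in A1 at stationary phase. Ogt, whose product binds TET proteins, was also higher there (0.74, SE 0.09). The lower genes there were D2hgdh, whose enzyme turns D-2-hydroxyglutarate into 2-oxoglutarate (-0.39, SE 0.09), and Sdha, a further succinate dehydrogenase subunit (-0.18, SE 0.06). These genes were named after their values were seen.

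Tdg (gene 100772748), the glycosylase that excises formyl- and carboxylcytosine as well as mismatched thymine, was at 76.2, 71.8, 86.8 and 99.8 CPM in exponential A0, 86.2, 87.2 and 81.2 CPM in exponential A1, and 120, 119 and 114 CPM in exponential CHO-S. CHO-S lay above both producing lines, which overlapped. Tdg was lower than in CHO-S in A0 (log2 -0.48, SE 0.11, edgeR adjusted p = 0.0015) and in A1 (-0.48, SE 0.05, edgeR adjusted p = 1.83e-08), in all alternatives. A1 and A0 differed by 0.02 (95% interval -0.21 to 0.25), with 0.19 against A0 cultures 1 and 2 (edgeR adjusted p = 0.039) and -0.14 against cultures 3 and 4.

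At stationary phase Tdg was at 77.8, 71.3, 75.8 and 79.3 CPM in A0, 66.8, 66.4 and 60.6 CPM in A1, and 90.8, 107.9 and 93.1 CPM in CHO-S. The lines did not overlap, in the order A1, A0, CHO-S. Tdg was lower in A1 than in A0 (log2 -0.25, SE 0.07, edgeR adjusted p = 0.019), with -0.23 and -0.27 against the 2 sets of A0 cultures. It was lower than in CHO-S in A1 (-0.62, SE 0.15, edgeR adjusted p = 0.012) and in A0 (-0.38, SE 0.13, edgeR adjusted p = 0.046). The A1 and A0 call was lost without A1 culture 2 or 3 (edgeR adjusted p = 0.050 and 0.10), with 6 groups in 1 fit (-0.24, edgeR adjusted p = 0.13) and with a replicate block (-0.23, edgeR adjusted p = 0.078). The A1 and CHO-S call was lost without A1 culture 2 or 3 or CHO-S culture 2 (edgeR adjusted p = 0.054 to 0.070), and the A0 and CHO-S call in 11 of 15 alternatives, among them the fits without any one culture other than CHO-S culture 1 (-0.23 to -0.41) and with A0 cultures 1 and 2 alone (-0.39) or 3 and 4 alone (-0.36). From exponential to stationary phase Tdg fell in A1 (-0.38, SE 0.07, edgeR adjusted p = 3.18e-05), in all 12 alternatives. In A0 it was -0.15 (95% interval -0.38 to 0.08). In CHO-S it was -0.27 (95% interval -0.57 to 0.03), and without stationary culture 1 it was -0.21 and called (edgeR adjusted p = 7.97e-04). The interaction between A1 and A0 was -0.27 (edgeR adjusted p = 0.27), and was called with A0 cultures 1 and 2 alone (-0.42, edgeR adjusted p = 0.0050).

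The base excision repair list was wider than the steps after TDG, as it also held Gadd45 stress genes and glycosylases of other bases. Of its 13 genes, 12 had a row and were tested. At exponential phase 1 was higher in A1 than in A0 and 3 were lower, and at stationary phase 3 were higher and 3 lower, with medians of -0.08 and -0.06, again beside 25.9% and 33.7% of all genes called. Neil3, a glycosylase of oxidised bases, was more than 2-fold lower in A1 at both phases. It was at 119 to 151 CPM in exponential A0 and 58.8 to 68.5 CPM in exponential A1 (log2 -1.06, SE 0.11, edgeR adjusted p = 6.71e-06). At stationary phase it was at 176 to 242 CPM in A0 and 77.8 to 85.5 CPM in A1 (-1.36, SE 0.12, edgeR adjusted p = 1.20e-06). CHO-S had 45.4 to 53.0 CPM over both phases, below A0 and A1. Lig3, the ligase of short-patch repair, was higher in A1 (log2 0.89 and 0.76, SE 0.09 and 0.07), and Polb, its polymerase, was lower (-0.56 and -0.84, SE 0.13 and 0.11). The other genes higher at stationary phase were Xrcc1, the scaffold of that ligase (0.55, SE 0.12), and the stress gene Gadd45b (0.60, SE 0.15). These 4 genes were named after their values were seen.

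Gadd45g, a stress gene reported to take part in demethylation, was at 1.48 to 3.72 CPM in stationary A0 and 0.708 to 0.999 CPM in stationary A1 (log2 -1.50, SE 0.36, edgeR adjusted p = 0.0051), with at most 40 counts in a culture. Neil2, a further glycosylase, was at 0.451 to 0.885 CPM in exponential A0 and 0.0818 to 0.305 CPM in exponential A1, with at most 23 and 4 counts in a culture. It was called lower in A1 (edgeR adjusted p = 0.018), and its fold change is not given at such counts. At stationary phase Neil2 was not called (edgeR adjusted p = 0.47).

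Of 8 genes that read methyl-CpG, at exponential phase 1 was higher in A1 than in A0 and 2 were lower, and at stationary phase 1 was higher and 1 lower, with medians of -0.08 and -0.01, counts that lie near the 25.9% and 33.7% of all genes called. Mbd1 was the gene higher at both phases (log2 0.51 and 0.41, SE 0.14 and 0.11). Mbd4, which encodes a thymine glycosylase (-0.44, SE 0.10), and Zbtb33, which encodes the zinc finger protein Kaiso (-0.35, SE 0.11), were lower at exponential phase, and the zinc finger gene Zbtb38 was lower at stationary phase (-0.27, SE 0.07). Of 7 genes of the methyl donor cycle, 2 were higher and 1 lower at exponential phase and 1 was higher and 1 lower at stationary phase, with medians of 0.13 and -0.04. Ahcy, which removes S-adenosylhomocysteine, was higher in A1 at both phases (log2 0.40 and 0.66, SE 0.12 and 0.08). At exponential phase its relative Ahcyl2 was higher (0.39, SE 0.11) and Mat2a, which encodes the subunit that makes S-adenosylmethionine, was lower (-0.31, SE 0.09). Mtr, the methionine synthase gene, was lower at stationary phase (-0.72, SE 0.16). These genes were named after their values were seen.

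A list of 15 germline genes that DNA methylation is known to silence in somatic cells had low summed levels. Of the 13 with a row, 7 passed the filter on low counts at exponential phase and 8 at stationary phase between A1 and A0, and edgeR called 0 of them, with 1 and 1 at an unadjusted p under 0.05, and DESeq2 called 0 and 0. Their median log2 fold changes were -1.01 and -1.08, from genes that mostly had few counts. Of the other comparisons, edgeR called Ddx4, a germ cell helicase gene, higher than in CHO-S in exponential A0 (log2 0.82, adjusted p = 0.0039) and A1 (0.86, adjusted p = 3.64e-04). From exponential to stationary phase Ddx4 was lower in A1 (-0.62, edgeR adjusted p = 0.025), and this change differed between A1 and CHO-S (-1.42, edgeR adjusted p = 0.014). Asz1 was called higher in stationary A0, with 5 to 18 counts in a culture, than in exponential A0 (0 to 3 counts, edgeR adjusted p = 2.68e-04) and in stationary CHO-S (0 to 1 counts, edgeR adjusted p = 0.021). Both genes were named after their values were seen. The summed level of the list was 3.81 to 5.35 CPM in exponential A0, 4.52 to 4.83 in exponential A1 and 2.42 to 3.21 in exponential CHO-S. At stationary phase it was 3.22 to 5.86 in A0, 2.75 to 4.12 in A1 and 4.25 to 10.3 in CHO-S, the highest being CHO-S culture 1, where the next was 4.34.

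The group means ranked differently for each gene. Dnmt1 ran from 506 ± 32.6 CPM (SD, n = 4) in exponential A0 to 193 ± 27.1 (SD, n = 3) in stationary CHO-S, a 2.62-fold range, and only the highest group stood clear of its neighbour. Uhrf1 ran from 323 ± 4.53 (SD, n = 3) in exponential CHO-S to 147 ± 15.7 (SD, n = 4) in stationary A0, a 2.20-fold range, with the 3 exponential groups above the 3 stationary groups. Dnmt3a ran from 140 ± 0.752 (SD, n = 3) in stationary CHO-S to 91.6 ± 5.01 (SD, n = 3) in exponential CHO-S, so the same line was highest and lowest. Neighbouring groups in that order overlapped except stationary and exponential A1.

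Tet2 had the widest range of the 6, 2.78-fold, from 27.4 ± 7.78 (SD, n = 3) in stationary CHO-S to 9.83 ± 2.29 (SD, n = 4) in exponential A0, and both CHO-S groups stood clear of their neighbours below. Further down the order, stationary A0 culture 3 (18.6 CPM) lay inside the range of exponential CHO-S. Tet3 had the narrowest, 1.43-fold, from 83.1 ± 4.10 (SD, n = 3) in exponential CHO-S to 58.0 ± 3.84 (SD, n = 3) in exponential A1, and every pair of neighbours overlapped. Tdg ran from 118 ± 2.99 (SD, n = 3) in exponential CHO-S to 64.6 ± 3.48 (SD, n = 3) in stationary A1, a 1.82-fold range. Exponential CHO-S lay above all other groups and stationary A1 below them, each without overlap. Stationary CHO-S ranked next to the top, with exponential A0 culture 4 inside its range, and it did not overlap its neighbour exponential A1. Exponential A1 overlapped exponential A0, and exponential A0 overlapped stationary A0.

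The genes whose level followed each enzyme most closely were ranked by Pearson's r of log2 CPM over the 20 cultures, among 10588 genes with at least 5 CPM on average. These cultures share lines and phases, so r is a description of this set. Nearest to Dnmt1 were Atad5 (r = 0.96), which unloads the sliding clamp after replication, the helicase gene Ddx11 (0.94) and Tmem97 (0.93). Nearest to Uhrf1 were Chaf1a (0.96), the large subunit of the replication-coupled histone chaperone, the mitotic checkpoint gene Bub1b (0.96) and LOC100766402 (0.96). Nearest to Dnmt3a were Dock9 (0.94), Prkca (0.85) and Lrp5 (0.85). Nearest to Tet2 were Dst (0.97), Ric1 (0.94) and LOC103163700 (0.93). Nearest to Tet3 were LOC100772156 (0.85), the histone methyltransferase gene Ehmt2 (0.81) and the histone demethylase gene Phf2 (0.80). Nearest to Tdg were Ppic (0.91), Wrap73 (0.91) and Brf1 (0.90).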

How the data were processed

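RNA was extracted with a column kit and made into poly(A) libraries with a stranded mRNA kit. The submitters' processing notes name STAR 2.5.4b and HTSeq 0.7.2, and the authors deposited raw counts per gene without normalization. The strand setting is not given in the sources used here, so genes that overlap on opposite strands are uncertain. Reads at more than 1 place (12.7% to 14.8% of a library) were not assigned to genes, and the 5 summary lines were left out.

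Libraries of 1 A0 exponential culture were summed, which gave 20 cultures from 24 libraries. Every gene that had a count of at least 1 in 2 or more samples of a fit was tested in edgeR 4.0.16 (R 4.3.3) with TMM scaling, the quasi-likelihood test, two-sided, and Benjamini-Hochberg adjustment over all genes tested. Each pairwise fit held only its 2 groups, and each interaction 4 groups. SE are the log2 fold change over the square root of F. The procedure was tested on simulated data. Alternatives were DESeq2 1.42.0, edgeR with RLE factors, other gene filters, a replicate block, 6 groups in 1 fit, single A0 libraries and leaving out each culture. The fits with A0 cultures 1 and 2 or 3 and 4 alone were chosen after seeing the data.

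The members and lists were chosen with earlier results of these data known. Besides the 8 genes, the rule named from each list up to 3 genes at least 2-fold changed and called between A1 and A0 at either phase, and for each enzyme the 3 genes with the most similar levels. Of the genes listed, Dnmt3b, Pclaf, Gadd45a, Tex19 and Rpl10l were not analysed here, and some other genes are not reported here. Culture numbers were taken from the sample titles. Between the A0 phases, deviations from the group means correlated at 0.19 to 0.42 in the 4 pairs of the same number. Only 2 of the 4 pairs correlated best with their own number, and cultures 3 and 4 each correlated best with the other. Whether a number marks the same culture at both phases was not shown. The blocked fit of the A0 phases changed no call of the 6 genes. Gene lengths of the build used for counting were not used, so levels were not compared between genes.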

Additional observations from a re-analysis of the deposited data

Results flagged for a closer look

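Uhrf1 in exponential A0 had 1 culture far from the others: culture 4 was at 235 CPM against 301 to 310 CPM in cultures 1 to 3, and the gap took up 0.882 of the group's range, above Dixon's critical value for 4 samples. In all, 12 groups of 4 cultures were examined, of which 0.6 are flagged by chance. Both libraries of that culture were low (229 and 231 CPM).

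Phase changes differed between lines by the interaction test of edgeR for Dnmt1 between A1 and A0 (0.61 on the log2 scale), for Dnmt1 between A1 and CHO-S (0.72), for Dnmt3a between A0 and CHO-S (-0.85) and for Dnmt3a between A1 and CHO-S (-0.50). These 4 share samples. The difference of Dnmt3a between A0 and CHO-S was called in every alternative, and the other 3 were lost when single cultures were left out.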

How the results depend on the processing

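Of 1056 values of the 6 genes under alternative settings, 887 had the same sign and the same call as the value reported, 107 lost a call, 26 gained one and 36 changed sign. The cause of these changes was not tested. No value that changed sign was called, before or after the change. CHO-S stationary culture 1 had both the lowest depth and levels apart from its group, and each stationary comparison with CHO-S rests on it and 2 others.

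With single cultures left out, the calls among the 6 genes ranged over 1 to 3 and over 3160 to 6015 of all genes for A1 against A0 at exponential phase, and over 1 to 2 at stationary phase (4863 to 6460 genes). They ranged over 0 to 5 for A0 against CHO-S at stationary phase (5475 to 9831 genes), 1 to 4 for A1 against CHO-S at stationary phase (4051 to 10451 genes) and 0 to 6 for the CHO-S phases (0 to 8269 genes). For the interactions they ranged over 0 to 2 for A1 and A0 (570 to 2987 genes), 1 for A0 and CHO-S (1119 to 2949 genes) and 0 to 3 for A1 and CHO-S (393 to 4513 genes). The 0 for all genes was the edgeR fit of the CHO-S phases without exponential culture 2, in which 3471 of 16938 genes had an unadjusted p under 0.05 and DESeq2 called 817.

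Leaving out single cultures also turned the sign of values that were not called. The log2 values ranged from -0.12 to 0.0096 for Uhrf1 and from -0.045 to 0.11 for Tdg in exponential A1 against A0, and from -0.16 to 0.12 for Tet2 and -0.15 to 0.019 for Tet3 in stationary A1 against A0. They ranged from -0.20 to 0.026 for Tet3 in exponential A0 against CHO-S, and from -0.076 to 0.0033 for Uhrf1 and -0.034 to 0.28 for Tet3 in stationary A1 against CHO-S. In the interaction of A0 and CHO-S they ranged from -0.034 to 0.23 for Dnmt1 and -0.097 to 0.32 for Tet2, and in that of A1 and CHO-S from -0.16 to 0.12 for Tet2.

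Replicate block: the samples of a block share a number, and a match of cultures beyond that was not shown for any block. With it, calls among the 6 genes were 1 for A0 against CHO-S at stationary phase (5043 genes), 0 for the CHO-S phases (350 genes), 3 for the interaction of A1 and A0 (3435 genes) and 0 for that of A1 and CHO-S (518 genes). In stationary A1 against A0 the count stayed at 2, with Dnmt1 gained (0.28, edgeR adjusted p = 0.0068) and Tdg lost (-0.23, edgeR adjusted p = 0.078). In pairwise fits of A0 with another line, A0 culture 4 has no partner, so the block took it out of the contrast. With the block, sign changes were 0.084 for Tet2 and 0.033 for Tet3 in stationary A1 against A0, and -0.0084 for Tet2 in the interaction of A1 and CHO-S, which was -0.019 by DESeq2. No culture set correlated best with its own number throughout (0 to 2 of the 3 or 4 pairs).

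With 6 groups in 1 fit, calls were 1 for stationary A1 against A0 (5151 genes) and 2 for the A1 phases (2470 genes). For the interactions they were 0 for A1 and A0 (973 genes) and 1 for A1 and CHO-S (1172 genes). For the CHO-S phases they were 3 (4107 genes). A0 against CHO-S at stationary phase gave 2 calls with RLE factors and 2 with no filter. With the second A0 libraries only, exponential A1 against A0 gave 1 call, and Uhrf1 and Tdg turned to 0.021 and -0.035. With the first only, the interaction of A1 and A0 gave 0 calls. Leaving aside the fits without single cultures, the alternatives called 5043 to 9524 of all genes for A0 against CHO-S at stationary phase. They called 3847 to 7179 for exponential A1 against A0 and 973 to 4588 for the interaction of A1 and A0. Fits with single A0 sets are included in these ranges.

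With A0 cultures 1 and 2 alone, calls were 1 for stationary A0 against CHO-S and 4 for the interaction of A1 and A0 (4588 genes). Signs turned for stationary A1 against A0 in Tet2 (0.33) and Tet3 (0.19), for Tet3 in stationary A0 against CHO-S (-0.034), for Tdg between the A0 phases (3.1e-04) and for Dnmt1 in the interaction of A0 and CHO-S (-0.17). With cultures 3 and 4 alone, calls were 4 for stationary A1 against A0 (6920 genes) and 1 for stationary A0 against CHO-S. For the interactions they were 3 for A1 and A0 and 1 for A0 and CHO-S (1095 genes). Signs turned for exponential A1 against A0 in Uhrf1 (0.072), Tet2 (-0.13) and Tdg (-0.14), for Dnmt1 in stationary A1 against A0 (-0.13), for Tet3 in exponential A0 against CHO-S (0.20), and in the interaction of A0 and CHO-S for Uhrf1 (0.012) and Tdg (-0.0097).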
